A study of Drosophila melanogaster with 2 samples.

Results

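The genes described here are 10 regulators of the embryonic cell cycle of Drosophila melanogaster: stg, CycA, CycB, CycB3, CycD, CycE, Cdk1, polo, aurA and fzy. They were taken by symbol from 13968 protein-coding genes of the Ensembl BDGP6 annotation, and all 10 were found. Binding of ADD1 (CG8290), a chromatin protein with an ADD domain that is linked to heterochromatin in flies, was measured around them by ChIP-seq. The material was whole embryos aged 0 to 14 hours, both sexes together, from a line that stably carries ADD1 with GFP at its C terminus. The 2 biological replicates, numbered 2 and 3, form the only group, and they share the fusion, the stage and the tissue. Neither the driving promoter nor the insertion site of the fusion is stated, the embryos mix all cell types and division stages, and a free-text label calls both samples input controls, although the antibody label names CG8290. Untagged embryos and input DNA were not analysed here, and whether the deposited lists take a control into account is not stated. What share of the signal is specific to ADD1 was therefore not tested.

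In fly embryos the first divisions run on maternal products, in synchrony and almost without gap phases. Later divisions depend on new transcription of stg, which encodes the Cdc25-type phosphatase that removes the inhibitory phosphates from the mitotic kinase Cdk1. Cdk1 works with the mitotic cyclins A, B and B3, cyclin E drives entry into S phase with Cdk2, and cyclin D acts in growth and G1 with Cdk4. Polo and Aurora A kinases act at centrosomes and on the spindle, and Fzy (Cdc20) directs the anaphase-promoting complex to the mitotic cyclins and securin.

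The data are 4 deposited lists of regions: 30000 from each replicate, another 30000 from the reads of the 2 combined (the pooled list), and 2478 optimal peaks, which are the strongest 2478 pooled regions. The authors labelled the pooled list as peaks and background. A pooled region outside the optimal list may therefore be background and is not by itself evidence of binding. Each region has a summit and a signal, the authors' own value on a scale not stated, used here only to rank regions within a list (rank 1 is the strongest). A region was given to a gene by its summit, which had to be at most 500 bp from one of its start sites, inside the gene, or no more than 5 kb outside it. By this rule the 10 genes held 49 pooled regions, of which 13 lay at start sites, 8 elsewhere in the gene body and 28 in the flanks. Of the 49, 6 were optimal peaks: 3 at start sites and 3 in flanks. Over the whole pooled list, 2478 of 30000 regions were. Fly genes lie close together, and 19 of the 49 summits, 15 of them in flanks, also lay within 500 bp of the start of another gene. How often this holds over all pooled regions was not computed. No region was identical in the 2 replicate lists, but 39 of the 49 overlapped a region of replicate 2 and 40 a region of replicate 3. The pooled list comes from the same reads, and a replicate region could overlap several pooled regions. The same share over all pooled regions was not computed, so these counts do not measure agreement between the replicates. Read depth is unknown because the lists hold no read counts.

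Sequences are shown for some of the regions described below. All are 201 bases centred on a start-site summit of the pooled list, read along the gene from the RefSeq sequence of dm6. The first set holds the 3 start-site summits of the optimal list: aurA (plus strand, chr3R:11962898-11963098), Cdk1 (minus strand, chr2L:10386394-10386594) and CycE (minus strand, chr2L:15746943-15747143). The second holds CycB3 (minus strand, chr3R:24870775-24870975) and fzy (plus strand, chr2L:16310807-16311007), which carry the core of a housekeeping promoter element called Motif 1. The third is stg (minus strand, chr3R:29255227-29255427), with a TATA box and an initiator next to its summit. Capitals mark matches, on either strand, to the motifs named in the paragraph on promoter sequence.
aurA: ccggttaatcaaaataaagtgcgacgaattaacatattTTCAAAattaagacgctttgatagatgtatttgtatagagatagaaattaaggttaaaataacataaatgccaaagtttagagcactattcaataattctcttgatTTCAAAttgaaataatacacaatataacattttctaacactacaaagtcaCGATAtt
Cdk1: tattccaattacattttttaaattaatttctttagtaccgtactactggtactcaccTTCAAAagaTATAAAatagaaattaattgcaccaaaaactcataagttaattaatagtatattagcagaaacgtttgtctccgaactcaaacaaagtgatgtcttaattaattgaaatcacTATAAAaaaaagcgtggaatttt
CycE: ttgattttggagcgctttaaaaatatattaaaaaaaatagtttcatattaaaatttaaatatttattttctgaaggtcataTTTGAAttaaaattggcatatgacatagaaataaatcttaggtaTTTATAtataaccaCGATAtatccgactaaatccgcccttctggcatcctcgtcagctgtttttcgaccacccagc
CycB3: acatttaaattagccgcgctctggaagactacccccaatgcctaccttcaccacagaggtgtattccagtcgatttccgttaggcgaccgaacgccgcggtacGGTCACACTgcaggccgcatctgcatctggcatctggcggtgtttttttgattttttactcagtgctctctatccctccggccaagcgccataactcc
fzy: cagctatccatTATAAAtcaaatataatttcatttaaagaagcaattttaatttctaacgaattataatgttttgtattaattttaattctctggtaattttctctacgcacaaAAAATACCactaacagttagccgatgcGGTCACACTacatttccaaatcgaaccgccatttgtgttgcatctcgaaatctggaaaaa
stg: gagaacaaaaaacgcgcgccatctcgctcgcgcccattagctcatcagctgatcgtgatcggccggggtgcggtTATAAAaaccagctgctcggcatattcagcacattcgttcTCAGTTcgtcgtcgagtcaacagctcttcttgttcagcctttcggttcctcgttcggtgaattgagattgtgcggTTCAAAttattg

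At their start sites the genes differed in the rank of the strongest pooled region. CycE, Cdk1 and aurA had optimal peaks within 500 bp of a start site. Then stg, CycA, CycB3, CycD and fzy had start-site regions just below the end of the optimal list, at pooled ranks between 2659 and 3339. The start-site regions of polo (rank 9187) and CycB (rank 10060) were weaker. For CycB and CycE the strongest region of all lay outside the gene: a peak near the top of the whole list beyond the 3′ end of CycB, and a peak at rank 1426 upstream of CycE, close to the start of another gene.

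**Figure D1:**
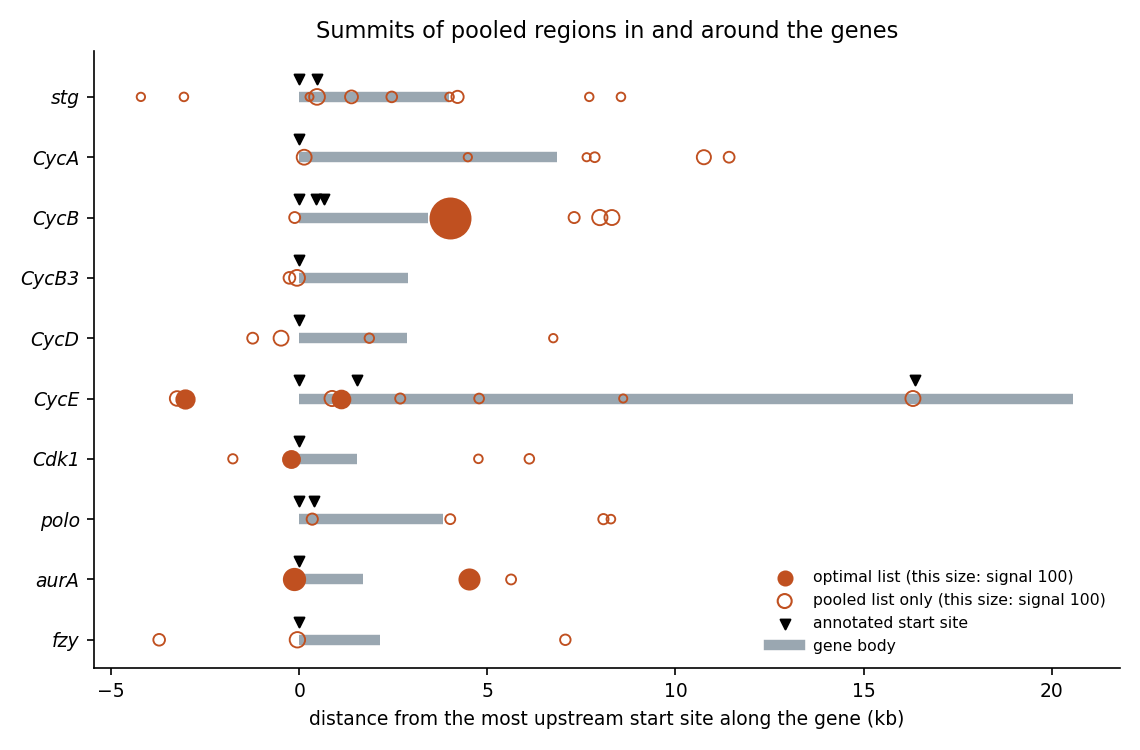
Summits of the 49 pooled regions of the 10 genes along each gene, in kb from its most upstream start site; circle area is proportional to the authors' pooled signal, filled circles are the 6 optimal peaks, triangles are annotated start sites and grey bars are gene bodies. The peak beyond the 3′ end of CycB, with a signal of 823.2, is the strongest.

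The genes of the mitotic kinases and of the phosphatase that activates Cdk1 differed in the rank of their start-site regions. At aurA, the gene of the centrosomal Aurora A kinase (FBgn0000147, 3R 11963124 to 11964826, plus strand), the start-site region ranked 1079 in replicate 2 (signal 99.5) and 512 in replicate 3 (signal 139.0). Both replicates thus placed it inside their strongest 2478 regions, and the pooled list placed it at rank 730 (signal 233.7), the highest start-site rank of the 10 genes. Its summit lay 126 bp upstream of the single start site, in the gap of 318 bp to the divergent gene CG3281, whose start was 193 bp away. A second optimal peak, rank 915 (signal 209.2), lay 2809 bp beyond the 3′ end of aurA, but 56 bp from the start of CG12213 and 73 bp from that of GC1, which encodes a mitochondrial glutamate carrier. It ranked 973 in replicate 2 and 972 in replicate 3.

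Cdk1 (FBgn0004106, 2L 10384739 to 10386262, minus strand) is the kinase that all mitotic cyclins activate. Its start-site region ranked 2627 in replicate 2 (signal 65.1) and 1652 in replicate 3 (signal 85.2). Replicate 3 placed it among its strongest 2478 and replicate 2 did not, and the pooled rank was 2026 (signal 147.7). The replicate 2 values belong to a region 61 bp upstream of the start. The replicate 2 region closest to the pooled summit ranked 3623 (signal 54.8). The pooled summit stood 232 bp upstream of the Cdk1 start and 168 bp from that of mRpS7, a mitochondrial ribosomal protein gene transcribed the other way, so that the nearer start was the neighbour's. The start sites of the pair are 400 bp apart.

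At stg (FBgn0003525, 3R 29251826 to 29255800, minus strand), the start-site region ranked 8628 in replicate 2 (signal 36.0) and 2141 in replicate 3 (signal 76.5). The replicates were far apart, and only replicate 3 placed it among its strongest 2478. The pooled rank was 2729 (signal 126.8), and the summit lay 2 bp upstream of the inner of 2 annotated start sites, that of transcript stg-RA. With 10 pooled regions stg had more than any other of the 10 genes. The median was 4 over the 10 genes and 3 over all protein-coding genes. Most of the stg regions ranked from 23090 to 29486, with signals of 38.5 to 33.2, close to the lowest in the list (32.9). Some of them overlapped each other, and some lay inside the neighbouring gene SP1029. A stg region in an intron, 914 bp downstream of the stg-RA start, ranked 3903 in replicate 2, above the start-site region there, and 13409 in replicate 3.

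The kinase gene polo (FBgn0003124, 3L 20309654 to 20313466, plus strand) had a weak start-site region in both replicates, of rank 9376 in replicate 2 (signal 34.6) and 12242 in replicate 3 (signal 30.5). Its pooled summit (rank 9187, signal 64.8) lay 47 bp upstream of the inner start site, that of polo-RB. The other pooled regions of polo lay beyond its 3′ end at ranks from 12779 to 23013, one of them 36 bp from the start of alphaSnap.

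**Figure D2:**
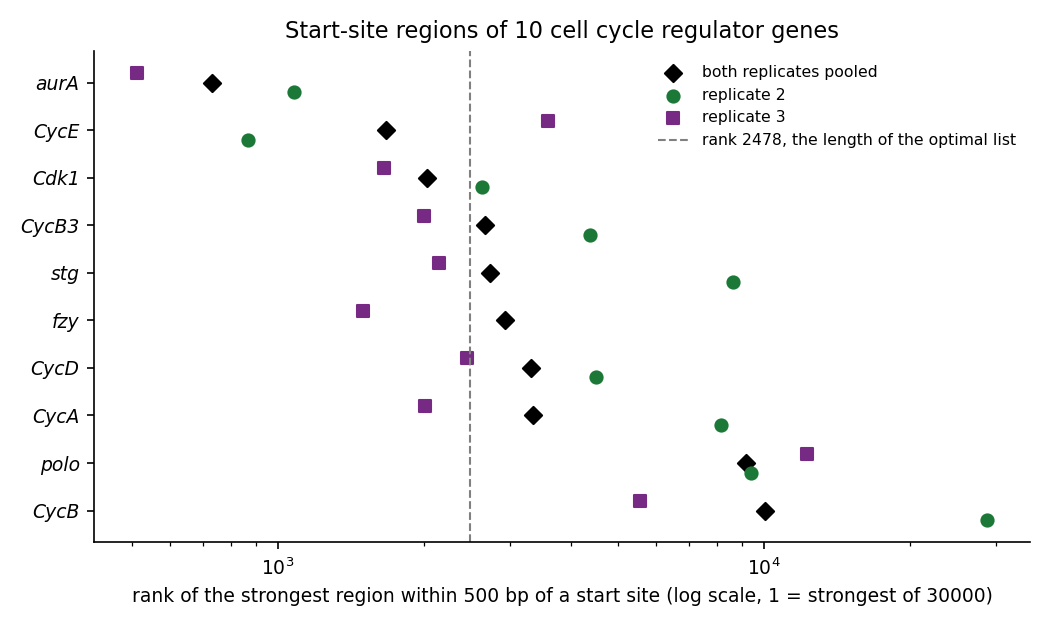
Rank of the strongest region within 500 bp of a start site of each of the 10 genes (log axis) in the pooled list and in each replicate's list; the dashed line is rank 2478. In replicate 3, 7 genes lie left of the line and in replicate 2 only CycE and aurA do; fzy has no start-site region in replicate 2.

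CycB, the gene of cyclin B (FBgn0000405, 2R 22803521 to 22806948, minus strand), had the strongest region of the 10 genes, yet not at a promoter. This region (2R 22802793 to 22803103) ranked 17 in replicate 2 (signal 434.5) and 26 in replicate 3 (signal 387.7). The replicates placed it alike, with both summits 10 bp from the pooled one, which had rank 23 (signal 823.2). The summit lay 569 bp beyond the 3′ end of CycB, in the gap of 1340 bp to the 3′ end of blw, the gene of the ATP synthase alpha subunit, which is transcribed towards it. The nearest start site of any gene was that of CycB, 3351 bp away. In the optimal list, 253 summits lay between genes and over 500 bp from a start site, and 57 of them (22.5%) lay, like this one, between convergent genes. At the start site of CycB itself the region ranked 28780 in replicate 2 (signal 20.5) and 5549 in replicate 3 (signal 47.9), both outside the strongest 2478, with a pooled rank of 10060.

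**Figure D3:**
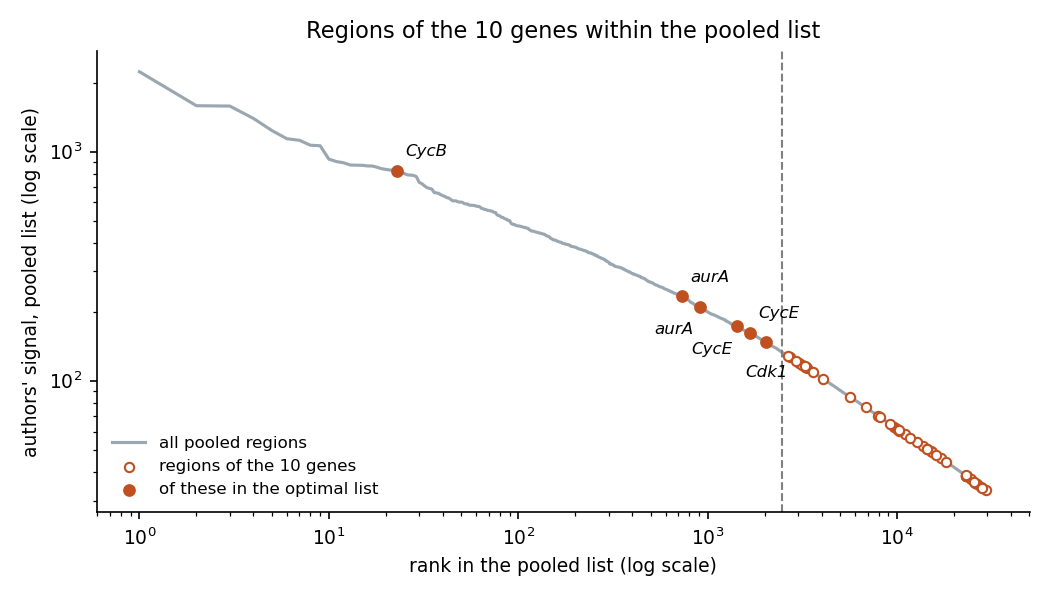
The authors' signal against rank in the pooled list (both log axes) for all 30000 regions (line) and for the 49 regions of the 10 genes (circles); filled circles are the 6 optimal peaks, labelled by gene, and the dashed line is rank 2478. CycB stands at rank 23 and the next region, at aurA, at rank 730.

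CycE (FBgn0010382, 2L 15727581 to 15748150, minus strand) encodes the S phase cyclin and is the longest of the 10 genes, with 20570 bp and 3 annotated start sites. Within 500 bp of a start site its strongest region ranked 868 in replicate 2 (signal 110.0) and 3585 in replicate 3 (signal 60.3). This was the reverse of most of the genes: replicate 2 placed it well inside its strongest 2478, and replicate 3 outside. These values belong to different start sites, since in replicate 3 the region at the innermost start was slightly the stronger. The pooled summit (rank 1665, signal 161.5) lay 433 bp upstream of the middle start site, which serves 3 of the 6 transcripts, in an intron of the longer ones. There the closest region ranked 868 in replicate 2 and 3716 in replicate 3 (signal 59.1).

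The innermost start site of CycE, that of CycE-RB, had a pooled region of rank 3252 with its summit 54 bp upstream. It ranked 4585 in replicate 2 and 3585 in replicate 3. No pooled summit lay within 500 bp of the outermost start, which serves CycE-RA and CycE-RE. Another optimal peak, rank 1426 (signal 172.5), stood 3042 bp upstream of CycE but 114 bp from the start of ND-B17, a gene of respiratory complex I, and 490 bp from a U5 snRNA gene. It ranked 1897 in replicate 2 and 1093 in replicate 3.

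The genes of the other cyclins had start-site regions of intermediate rank. CycB3 (FBgn0015625, 3R 24867934 to 24870816, minus strand), whose product acts in anaphase, had ranks of 4381 in replicate 2 (signal 49.8) and 1996 in replicate 3 (signal 79.0). CycA (FBgn0000404, 3L 11826719 to 11833578, minus strand), the cyclin gene needed for mitosis in the later embryonic cycles, had ranks of 8157 in replicate 2 (signal 36.9) and 2009 in replicate 3 (signal 78.7). CycD (FBgn0010315, X 15906822 to 15909676, minus strand) had ranks of 4501 in replicate 2 (signal 49.1) and 2447 in replicate 3 (signal 72.1). In each case replicate 3 alone placed the region among its strongest 2478. The pooled ranks were 2659 for CycB3, 3339 for CycA and 3313 for CycD. At CycA the region of replicate 2 lay 414 bp downstream of the start, and the one overlapping the pooled region ranked 12056 there.

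The pooled summits of the 3 cyclin genes lay at different distances from their start sites. That of CycB3 stood 59 bp upstream and that of CycA 131 bp downstream, in the 5′ untranslated region. That of CycD stood 483 bp upstream, close to the limit of 500 bp, and a window of 200 bp leaves it out. A weaker region of CycA (rank 26520) coincided with the start of CG7264, a gene inside CycA, and its flank held a region at RpL10Ab (rank 4058).

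The activator of the anaphase-promoting complex, fzy (FBgn0001086, 2L 16310956 to 16313097, plus strand), had no start-site region in replicate 2 and a region of rank 1492 in replicate 3 (signal 89.0). After aurA this was the highest start-site rank in replicate 3, and the gene was the only one of the 10 without a start-site region in one replicate. The pooled region there had no overlapping region anywhere in the list of replicate 2. The pooled rank was 2930 (signal 121.9), with the summit 49 bp upstream of fzy and 181 bp from the start of its divergent neighbour cni.

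Counted over the genes, 3 of 10 (30%, 95% exact interval 6.67 to 65.2) had an optimal summit within 500 bp of a start site, against 12.6% of all protein-coding genes. In the gene or within 5 kb, 4 of 10 (40%, 12.2 to 73.8) had an optimal summit, against 31.9% of all. These intervals cover the counting of genes only, and both contain the share of all genes, so a difference was not detectable with 10 genes. The 10 genes were also longer, with a median of 3155.5 bp against 2164.5 bp over all, and the shares were not adjusted for length. All 10 (100%, 69.2 to 100) had a pooled region at a start site, against 48.9% of all genes. Where such a region is not an optimal peak, it may be background. The best pooled start-site rank had a median of 2829.5 over the 10 genes, against 5688 over the 6833 protein-coding genes with such a region. The genes were picked with results of these data known, so an interval here or below that leaves out the share of all genes does not show enrichment. No test of enrichment was made.

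The replicates gave different counts. Among the strongest 2478 regions of replicate 2, 2 of 10 genes (20%, 2.52 to 55.6) had one at a start site, CycE and aurA, against 12.3% of all protein-coding genes. Among those of replicate 3, 7 of 10 (70%, 34.8 to 93.3) had one: all but CycE, CycB and polo, against 12.4% of all. The aurA start site was thus the only one among the strongest regions of both. Any region lay at a start site of 9 of 10 genes in replicate 2, against 45.5% of all, and of 10 of 10 in replicate 3, against 50.5%.

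The best start-site rank was better in replicate 3 for 8 of the 10 genes, all but CycE and polo. The same held for 4486 of 8078 protein-coding genes with a start-site region in either list (55.5%). Each replicate is 1 library of unknown depth, and the part of depth in this was not tested. In replicate 2 the median best rank was 4501 over the 9 genes with a region, against 5849 over all genes with one. In replicate 3 it was 2075 over the 10 genes, against 5860.5 over all genes with a region.

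**Figure D4:**
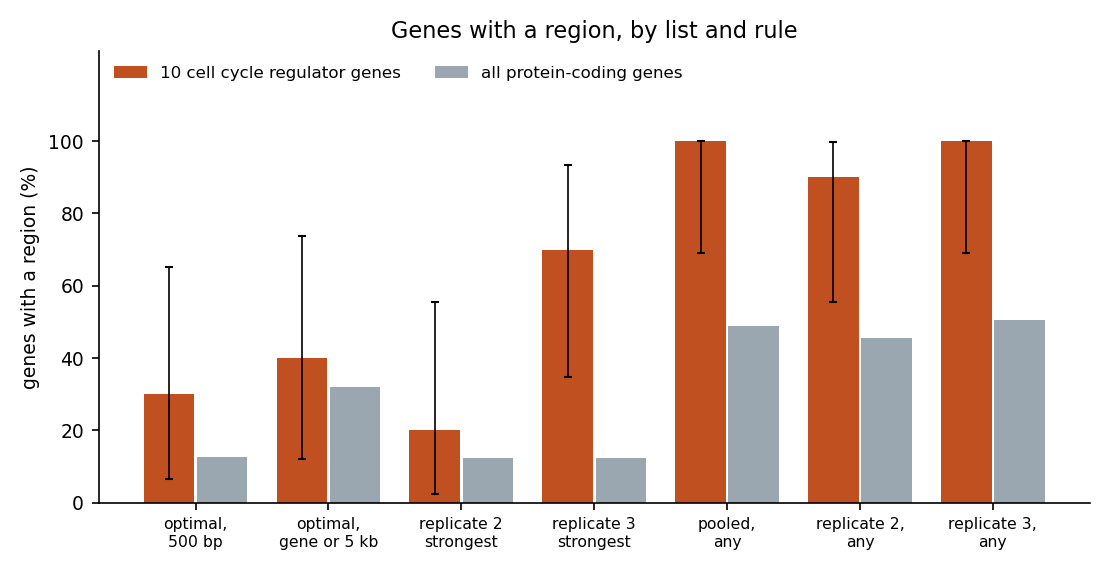
Share of genes (%) with a region, for the 10 cell cycle regulator genes (left bars, with 95% exact binomial intervals for n = 10) and all 13968 protein-coding genes (right bars); apart from the second pair, a region counts within 500 bp of a start site, and "strongest" means the 2478 strongest of that replicate. The pair for replicate 3 shows 70% against 12.4%, and that for replicate 2 shows 20% against 12.3%.

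The strongest pooled start-site summit lay upstream of the start in 9 of 10 genes, all but CycA, against 73.4% of the 6833 protein-coding genes with such a region. For stg, polo and CycE, which have several start sites, upstream refers to the nearest one, and the summit lay inside the gene. At stg the summit was 2 bp from that start. Of the 13 start-site summits, 7 were intergenic, 4 in a 5′ untranslated region and 2 in an intron. A divergent protein-coding partner with its start within 500 bp upstream was annotated for aurA, Cdk1 and fzy, 3 of 10 (30%), against 27.3% of all protein-coding genes. Among the 1754 genes with an optimal start-site summit, 54.9% had such a partner. Of the 3 optimal start-site summits here, those of aurA and Cdk1 were shared with the partner's start, whereas that of CycE had no other start within 500 bp.

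Base composition at the start-site summits varied widely. Within 100 bp of the summit the GC content was 25.9% at aurA, 25.9% at Cdk1 and 29.4% at the middle start of CycE. These lay below the median of 38.3% over all 2478 optimal summits. It was 53.2% at the stronger and 32.8% at the weaker summit of CycB3, 50.7% and 51.7% at the 2 summits of stg, 44.8% at polo, 42.8% at CycB, 42.3% at CycD, 40.3% at CycA and 30.3% at fzy. The innermost start of CycE, which had no optimal peak, had 53.2%. The peak beyond CycB had 37.3%.

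Promoter motifs were searched on both strands in windows from 250 bases before to 50 after each of the 16 start sites, and within 100 bp of the 13 start-site summits. The Motif 1 core GGTCACACT lay in 3 windows, at CycB, CycB3 and fzy, and each of these matches was also within 100 bp of a summit, as printed above for CycB3 and fzy. It occurred in 5.22% of 19276 protein-coding promoter windows, in 2.42% of optimal summit windows and in 1.3% of pooled ones. In fzy it began 8 bases before the start, and the Motif 6 core GGTATTTT began 35 bases before it. Motif 6 was also at polo, and occurred in 4.79% of all promoter windows. The DRE TATCGATA, the element bound by Dref, occurred at CycA alone, beginning 11 bases before its start (7.98% of all promoters), and not within 100 bp of the CycA summit. The BEAF-32 core CGATA, which the DRE contains, lay in 7 of 16 windows, against 45.6% of all, with 6 matches within 100 bp of the weak start-site summit of CycB.

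Core promoter elements and sites of cell cycle and early embryonic factors were searched in the same windows. In stg a TATA box (TATAAA) began 28 bases before the start at its summit, and the initiator TCAGTT at base 13 after it. Over the genes TATAAA lay in 5 of 16 windows, at stg, CycA, Cdk1 and fzy, against 42.2% of all promoter windows. TCAGTT lay in 3 of 16, at stg, CycE and polo, against 26.8%. The E2F site TTTGGCGC lay in 3 windows, at the outer start of stg, at CycB and at the middle start of CycE, against 2.36% of all, and in none of the summit windows. The E2F sites TTTCCCGC (1.52% of all promoters) and TTTGGCGG (1.69%) were in none of the 16 windows or the 13 summit windows, nor were the Zelda site CAGGTAG (1.69%), the E-box CACGTG (4.01%) or the downstream promoter element CGGACGT (1.62%). The cell cycle homology region TTTGAA lay in 6 windows, against 38.6% of all, and within 100 bp of the summits of aurA, Cdk1, CycE, stg and polo and of the weaker of 2 start-site summits of CycB3. These were 6 of 13 summit windows, against 26.8% of optimal and 21.8% of pooled summit windows. The GAGA repeat GAGAGAG was at the outermost CycE start (7.62% of all) and the Motif 7 core CAGCNCTG at CycB (6.83%). A match describes the letters in the window and not a bound factor.

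**Figure D5:**
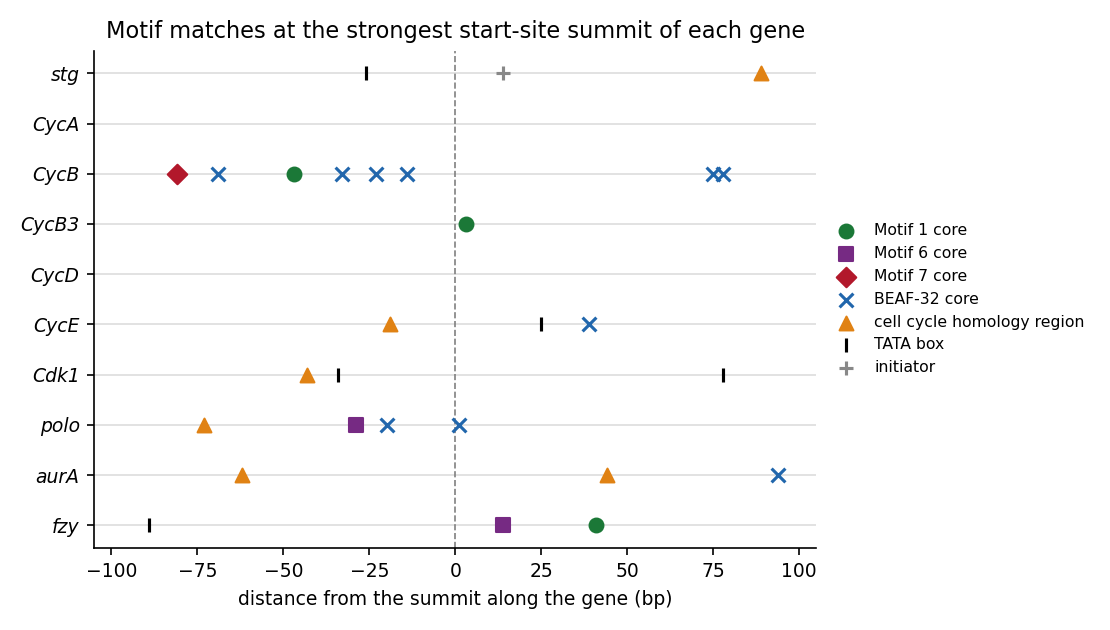
Positions of motif matches (first base, in bp along the gene) around the strongest start-site summit of each of the 10 genes; motifs with no match in these windows are not drawn. Motif 1 is matched at CycB, CycB3 and fzy, and CycA and CycD have no match.

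Other genes of the cell cycle were taken from a list of 66, chosen with earlier results of these data known, and all matched the annotation. Of these, 16 (24.2%, 95% exact interval 14.5 to 36.4) had an optimal summit within 500 bp of a start site, against 12.6% of all protein-coding genes, and 52 (78.8%) had a pooled region there, against 48.9%. Among the strongest 2478 regions, 16 of the 66 had one at a start site in replicate 2 and 16 in replicate 3, where the 10 regulators gave 2 and 7. The strongest was at rux, an inhibitor of cyclin A with Cdk1 (pooled rank 187, signal 390.3), which ranked 203 in replicate 2 and 169 in replicate 3, at a start shared with MCTS1.

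By function, grouped after their values were seen, the 16 made up different shares of the groups. All 4 listed kinases of the DNA damage checkpoint were among them: tefu (ATM, rank 729), mei-41 (ATR, 1570), grp (Chk1, 1642) and lok (Chk2, 1674). Of 9 spindle checkpoint genes 1 was, Bub3 (1826), and all 9 had a pooled start-site region. These 4 kinase genes and Bub3 shared the region with another gene's start: Hsc70-4, TH1, squ, barr and Cap-D2 in that order. The share of all genes with such sharing was not computed. A divergent partner was annotated for 54.9% of all genes with an optimal start-site summit. Of 3 genes of protein phosphatase 2A, mts (680, near Rack1) and tws (1321) were among the 16. Of 10 listed subunits of the anaphase-promoting complex 1 was, lmgA (1388, near lmgB and CG17834), while 7 had a pooled start-site region. The complex's activator fzr (2411) and trbl, which promotes loss of String protein (1404), were also among the 16. None of the 3 securin and separase genes (pim, thr, Sse) or the 4 chromosomal passenger genes (aurB, Incenp, borr, Det) was. Over all protein-coding genes 12.6% had such a summit, so low counts in groups this small do not show a shortage. Because the groups were formed after the values were seen, 4 of 4 kinases does not show an excess either.

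The remaining 5 of the 16 have other functions. They were SAK, the Polo-like kinase of centriole duplication (rank 953, near Cdk12), plu, a subunit of the maternal PNG kinase (1921, near RpS18), Dp, the partner of E2F proteins (2052, near lncRNA:CR43918), geminin, an inhibitor of replication licensing (2218), and Cdk4, the partner of cyclin D (2340). Of the 3 PNG kinase genes plu alone, and of 5 E2F and Rb genes Dp alone, had such a summit. In all, 14 of the 66 had no pooled region at a start site, among them aurB, Cdk2, pim, thr and Wee1. The other Cdc25 gene, twe, needed in meiosis, had a pooled rank of 16448, against 2729 for stg. The twe summit lay 308 bp from its start, near that of CG4935. In replicate 2 twe had no start-site region and stg ranked 8628. In replicate 3 twe ranked 11155 and stg 2141.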

How the data were processed

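Regions of ADD1-GFP ChIP-seq in whole embryos aged 0 to 14 hours were analysed as deposited, in 1 group of 2 replicates. Per the labels, chromatin was sonicated to 200 to 800 bp, and the lists are in dm6 coordinates. The authors deposited a signal for each region, on a scale not stated, and pooled both replicates for the pooled list. Aligner, caller and the cutoff on the irreproducible discovery rate: not given in the sources used here. Besides its own alignments, each replicate list was made with 1 file common to both, of unstated role.

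Summits were compared with Ensembl release 115 genes, leaving out transposable elements. All 10 genes had the same start and end in RefSeq, whose sequence supplied the windows. Replicate values are those of the strongest region within 500 bp of a start site, unless the closest overlapping region (1 bp) is named. Shares have 95% exact (Clopper-Pearson) intervals. A function for the distance to a start site and the motif search were tested on simulated data (Python 3.11.15, scipy 1.17.1). The rules for gene bodies and flanks were not tested in this way. The 10 genes, the 66 further genes and the motifs were chosen with earlier results of these data known. The text names all 10 genes, every gene with a start within 500 bp of their optimal summits, and every listed gene with an optimal start-site summit; other neighbours, twe and listed genes without such a summit were named after their values were seen. With 1 group and no read counts, no test was run. Alternatives were a stricter list, each replicate's strongest regions alone, optimal peaks overlapping the strongest 2478 regions of each replicate, other windows and flanks, and regions nearest to the gene.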

Additional observations from a re-analysis of the deposited data

How the results depend on the processing

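The count of 3 genes with an optimal start-site summit depended on the list. It was 1 (aurA) in the strongest 1239 peaks of the optimal list, 1 among optimal peaks that overlapped one of the strongest 2478 regions of each replicate, by 1 bp or over 50% of the peak, and 1 with a window of 200 bp; with a window of 1000 bp it was 3. Leaving out a replicate gave 2 (without replicate 3) to 7 (without replicate 2). Genes with an optimal summit in the gene or flank numbered 4, with 2 in the strongest 1239 peaks and 3 to 9 without a replicate; other settings gave 3 to 6. The 6 optimal regions became 3 in the strongest 1239 peaks, 3 when the nearest start site had to belong to the gene, and 7 to 12 without a replicate. Of the 66 further genes, 16 had a start-site summit, against 4 in the strongest 1239 peaks, 9 among optimal peaks that so overlapped the strongest 2478 of each replicate, with either overlap, and 16 without either replicate. Pooled start-site regions were found for 10 genes, and for 8 to 10 under the alternatives. No paired analysis was possible because the 2 samples form a single group. The cause of these shifts was not tested. Without read counts, the precision of a single region is unknown.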
